A study of Rattus norvegicus with 6 samples.

Results

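The platelet-derived growth factor (PDGF) family consists of the ligand genes Pdgfa, Pdgfb, Pdgfc and Pdgfd and the receptor genes Pdgfra and Pdgfrb. These 6 genes were taken by symbol from the 32161 genes of the count table. Of them, 5 had enough counts to be tested among 13945 tested genes, and Pdgfb did not. The RNA came from primary cells of rat articular cartilage, taken from its superficial layer, which faces the joint fluid. Static cells were kept without flow (0 dyne/cm², 3 libraries) and sheared cells were exposed to fluid shear stress of 20 dyne/cm² (3 libraries). The sources used here give no strain, age, duration of flow, passage or pooling of animals. Nothing in the labels ties the 3 libraries of a group to separate cultures or animals; the p-values therefore reflect only the variation among these libraries, which could be technical.

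PDGFs are dimers that bring receptor tyrosine kinases together on the cell surface. The PDGF-A and PDGF-C dimers bind mainly the alpha receptor, PDGF-B binds both receptors, and PDGF-D binds mainly the beta receptor. PDGF-A and PDGF-B are cut inside the cell, while PDGF-C and PDGF-D are secreted in a latent form and activated outside it by proteases such as those of the plasminogen activator system. The receptors recruit adaptors, phosphatidylinositol 3-kinase and phospholipase C gamma, and drive growth and migration of mesenchymal cells, connective tissue and cartilage precursors among them.

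Under shear, the ligand genes Pdgfa and Pdgfc changed in opposite directions and both receptor genes fell. Pdgfa fell by 17.9% and Pdgfc was higher by 20.5%. Pdgfra fell by 12.7% and Pdgfrb fell by 9.35%, and these calls were lost when single libraries were left out. Pdgfd did not pass the test and Pdgfb was at the detection limit. In all, 4 of the 5 tested PDGF genes changed (1 higher, 3 lower), where 18.5% of all tested genes did, 10.8% higher and 7.71% lower (edgeR quasi-likelihood test, Benjamini-Hochberg adjusted p under 0.05 over all tested genes). That background split of 1508 higher and 1075 lower genes depended on the scaling, with 1275 and 1364 by upper-quartile factors and 1124 and 1730 by library totals alone. None of the 5 tested PDGF genes changed direction with the scaling. In bulk RNA, fewer cells of a type and less RNA per cell cannot be told apart.

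Each library held 33342775 to 33979479 counts. Levels are given as CPM, the count scaled to the library total with edgeR's TMM factors, and as RPKM, the CPM per kilobase of summed exon length, where genes are compared with each other. The labelled cell type was checked by marker genes. The superficial zone gene Prg4, which encodes lubricin, was at 18.8 ± 1.4 CPM in static and 22.4 ± 0.9 CPM in shear libraries (SD, n = 3 each). The other superficial zone markers were mixed, with 2 to 4 counts for Erg and 18 to 38 for Cilp. Abi3bp had 654 to 981 counts, Clu 1872 to 2091 and Thbs4 2582 to 3120. Among chondrocyte markers, Col2a1, which encodes cartilage collagen, was at 4 to 8 counts in the libraries. Sox9 had 216 to 524 counts, Col11a2 340 to 424 and Acan 359 to 515. The fibroblast collagen gene Col1a1 averaged 6101 CPM in static and 6605 CPM in shear libraries. In the same fibroblast list, Dpt had 40 to 70 counts and Pi16 had 6 to 21. Endothelial markers were mixed, with 0 counts in every library for Cldn5 and Emcn, 72 to 124 counts for Tek and 94 to 265 for Kdr. Pericyte and smooth muscle markers were mixed too, with 0 to 2 counts for Rgs5 and Kcnj8, 459 to 624 for Des, 727 to 948 for Mcam and 2441 to 2718 for Cspg4.

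Promoter windows were taken as 250 bases before to 50 bases after the annotated start. They were found in RefSeq (build GRCr8) for 5 of the 6 genes, all but Pdgfrb. Shown here are those of Pdgfa and Pdgfc, the ligand genes that moved in opposite directions, and of Pdgfra, the alpha receptor gene. Capitals mark matches, on either strand, to GAGACC (the shear stress response element described in the human PDGFB promoter), GGGCGG (the GC box) or TATAAA (the TATA box).
Pdgfa, chr12:20759116-20759415, plus strand: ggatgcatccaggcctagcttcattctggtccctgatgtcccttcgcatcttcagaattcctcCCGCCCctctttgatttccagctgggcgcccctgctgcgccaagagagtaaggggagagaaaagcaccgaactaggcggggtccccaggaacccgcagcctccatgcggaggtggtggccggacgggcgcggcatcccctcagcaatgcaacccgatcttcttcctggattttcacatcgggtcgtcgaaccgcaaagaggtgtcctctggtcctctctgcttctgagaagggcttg
Pdgfc, chr2:168614918-168615217, plus strand: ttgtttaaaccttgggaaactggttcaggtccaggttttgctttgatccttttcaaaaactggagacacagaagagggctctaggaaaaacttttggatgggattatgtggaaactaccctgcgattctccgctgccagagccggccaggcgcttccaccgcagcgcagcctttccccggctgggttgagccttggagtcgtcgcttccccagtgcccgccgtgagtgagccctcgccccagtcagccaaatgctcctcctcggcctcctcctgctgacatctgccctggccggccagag
Pdgfra, chr14:33408467-33408766, minus strand: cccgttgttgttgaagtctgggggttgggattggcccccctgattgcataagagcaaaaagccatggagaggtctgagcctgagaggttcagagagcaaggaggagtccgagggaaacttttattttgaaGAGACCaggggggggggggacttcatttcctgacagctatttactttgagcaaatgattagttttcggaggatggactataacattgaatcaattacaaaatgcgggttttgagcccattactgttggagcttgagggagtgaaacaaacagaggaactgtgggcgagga
The Pdgfra window held 1 match to GAGACC, on the strand of the gene and beginning at -120 from the start. The rat Pdgfb window held no match to GAGACC, nor did those of Pdgfa and Pdgfd. GAGACC occurs on either strand in 16.5% of 33469 rat promoter windows of the same length. The Pdgfa window held 1 match to GGGCGG, on the other strand at -187, a motif in 33.1% of the windows. The Pdgfb window (at -207) and the Pdgfd window (at -114) also held 1 such match each on the other strand. The Pdgfc window matched none of these motifs, and TATAAA, in 14.2% of all windows, was in none of the 5. The 50 bases after the annotated start of Pdgfc begin with atg, a start codon. That window may therefore lie before the coding sequence rather than around the start of transcription, which was not tested. No matches of different motifs overlapped. Guanine and cytosine made up 60.0% of the Pdgfa, 58.0% of the Pdgfc and 48.0% of the Pdgfra window, beside a median of 51.7% over all windows. A match describes the letters and does not show a bound site.

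Among the ligands, Pdgfa encodes the A chain, the classical ligand of the alpha receptor. The gene lies on chromosome 12 from 17734133 to 17755285 in the table's coordinates, whose build the sources used here do not give. Its level was 50.6, 51.8 and 50.9 CPM in static replicates 1 to 3 and 46.0, 39.0 and 40.9 CPM in shear replicates 1 to 3. All shear libraries lay below all static ones; over all tested genes the groups were separate, in either direction, in 32.7%. The mean went from 51.1 ± 0.6 to 42.0 ± 3.6 CPM (SD, n = 3 each). By edgeR the change was -0.28 ± 0.06 on the log2 scale (SE, adjusted p = 0.0015), and the call was kept under all 14 alternatives run, with log2 fold changes from -0.35 to -0.23 when 1 library was left out.

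Pdgfc encodes a ligand with an extra CUB domain that must be cleaved off before it binds the alpha receptor (chromosome 2, 179952227 to 180128283). It was at 45.6, 46.7 and 50.4 CPM in static replicates 1 to 3, and at 54.4, 61.9 and 55.5 CPM in shear replicates 1 to 3. Each shear library lay above each static one, with the highest value in shear replicate 2, the library with the lowest Pdgfa. The mean was 47.5 ± 2.5 CPM in static and 57.3 ± 4.0 CPM in shear libraries (SD, n = 3 each), and edgeR gave a log2 fold change of 0.27 ± 0.06 (SE, adjusted p = 0.0021). This call too was kept under all 14 alternatives, with log2 fold changes from 0.21 to 0.31 when 1 library was left out.

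Pdgfd, the relative of Pdgfc whose product acts mainly on the beta receptor, was at a lower level (chromosome 8, 4440876 to 4669014). Static replicates 1 to 3 had 5.51, 5.68 and 6.41 CPM and shear replicates 1 to 3 had 4.97, 4.87 and 5.62 CPM. The groups overlapped, since shear replicate 3 lay above static replicate 1. The log2 fold change was -0.19 ± 0.12 (SE, edgeR adjusted p = 0.34), with a 95% interval from -0.53 to 0.16 at 4 residual degrees of freedom. That interval leaves out the degrees of freedom that the edgeR test gains by pooling genes, so it is wider than the test implies. The interval includes changes as large as those of Pdgfa, so a fall of that size in Pdgfd could not be told from no change in these libraries.

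Pdgfb encodes the B chain, the ligand of both receptors, made in the body mainly by platelets and endothelium (chromosome 7, 121214628 to 121232741). It had 2 counts in static replicate 1 and 0 in the other 5 libraries. A count of 0 allows up to 3 counts, which is 0.0866 to 0.0919 CPM in these libraries, counting error only. No fold change is given for a gene at this floor. Without the low-count filter it had an edgeR adjusted p of 0.58.

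**Figure D1:**
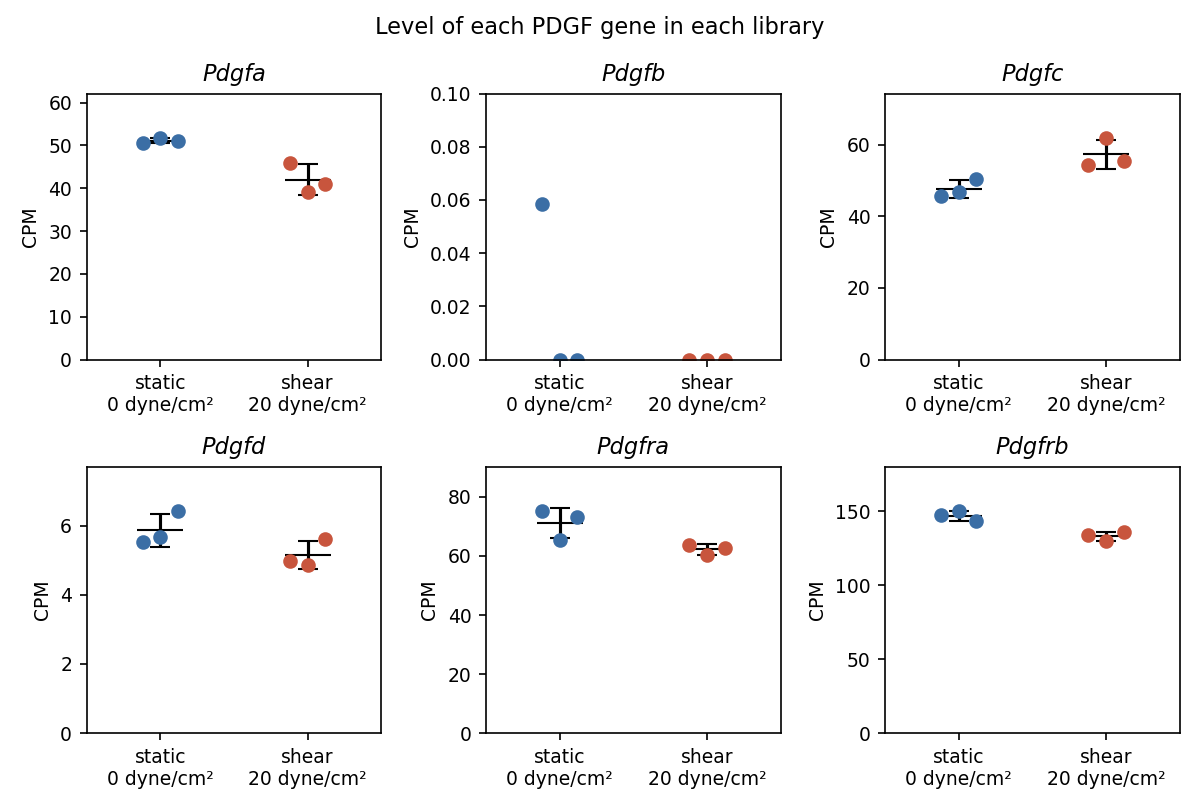
CPM of each PDGF gene (vertical axes, each from 0) in the 3 static and 3 shear libraries; points are libraries, bars the mean and SD, which are left out for Pdgfb. Shear points lie below static points for Pdgfa, Pdgfra and Pdgfrb, above them for Pdgfc, and overlap with them for Pdgfd.

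Of the receptors, Pdgfra encodes the alpha receptor, which marks many fibroblasts and mesenchymal progenitors (chromosome 14, 35527927 to 35581031). Its level was 75.1, 65.4 and 73.2 CPM in static replicates 1 to 3 and 63.7, 60.2 and 62.7 CPM in shear replicates 1 to 3. The groups did not overlap, but static replicate 2 lay close to the highest shear library. The mean went from 71.2 ± 5.1 to 62.2 ± 1.8 CPM (SD, n = 3 each), which is -0.20 ± 0.06 on the log2 scale (SE, adjusted p = 0.016 by edgeR). The call was lost without static replicate 1 (log2 fold change -0.15, edgeR adjusted p = 0.11), static replicate 3 (-0.17, 0.068), shear replicate 2 (-0.17, 0.082) or shear replicate 3 (-0.20, 0.051). It was kept without either of the other libraries and under the 8 other alternatives. On the same strand another gene of the table covers 0.40% of its exon length; the other PDGF genes share no exon base with another gene.

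Pdgfrb encodes the beta receptor, best known from pericytes and smooth muscle and also made by fibroblasts (chromosome 18, 56364620 to 56406381). It had the highest CPM of the family, with 147, 150 and 143 CPM in static replicates 1 to 3 and 134, 130 and 136 CPM in shear replicates 1 to 3. The groups were separate. The mean went from 147 ± 3 to 133 ± 3 CPM (SD, n = 3 each), which is -0.14 ± 0.05 on the log2 scale (SE, adjusted p = 0.034 by edgeR). That call rested on most of the libraries. It was lost without static replicate 1 (adjusted p = 0.095 by edgeR), static replicate 2 (0.15), shear replicate 1 (0.064), shear replicate 2 (0.11) or shear replicate 3 (0.061), and without the low-count filter (0.063). Without static replicate 3 it was kept (edgeR adjusted p = 0.045). Counting every setting, the Pdgfrb call was kept under 7 of the 14 alternatives.

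Markers of mural cells, the pericytes and smooth muscle that carry the beta receptor in vessels, gave these values beside the receptors. The shares of called markers below stand beside the 18.5% called over all tested genes. Of 8 tested mural markers, 0 rose and 0 fell (median -0.02 on the log2 scale), and their summed level was 1378 to 1448 CPM in static and 1362 to 1430 CPM in shear libraries. Tagln, Acta2 and Myh11, contractile genes that cultured fibroblasts can also express, made up most of that sum. Of 9 tested fibroblast markers 2 rose and 0 fell, a share of 22.2% and near that background, with summed levels of 12424 to 12970 CPM in static and 13297 to 14235 CPM in shear libraries. The 2 were the proteoglycan genes Dcn (0.17 on the log2 scale) and Lum (0.32). The collagen genes Col1a1 and Col3a1 made up most of the fibroblast sum and were not called (edgeR adjusted p = 0.094 and 0.13). Of 3 tested endothelial markers the VEGF receptor gene Kdr fell (33.3%), and the summed level of that list was 9.91 to 11.9 CPM in static and 5.36 to 9.28 CPM in shear libraries. Of 3 tested macrophage and blood cell markers 0 rose and 0 fell, with summed levels of 8.98 to 9.85 CPM in static and 8.05 to 9.50 CPM in shear libraries. These markers were mixed in level, with Hbb at 0 in every library and 0 to 11 counts for Ptprc. Lyz2 had 2 to 51 counts, Cd68 16 to 34, Csf1r 47 to 92 and Cd14 176 to 226. Of 7 tested chondrocyte markers Sox9 rose and Acan fell (28.6%). The rest of the 12 listed, Col2a1, Matn1, Col9a1, Hapln1 and Cnmd, had at most 8 counts in any library and were not tested. Among the superficial zone markers, 3 of the 5 tested were called higher and 0 lower (60.0%). The part of these markers in the PDGF results was not tested.

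**Figure D2:**
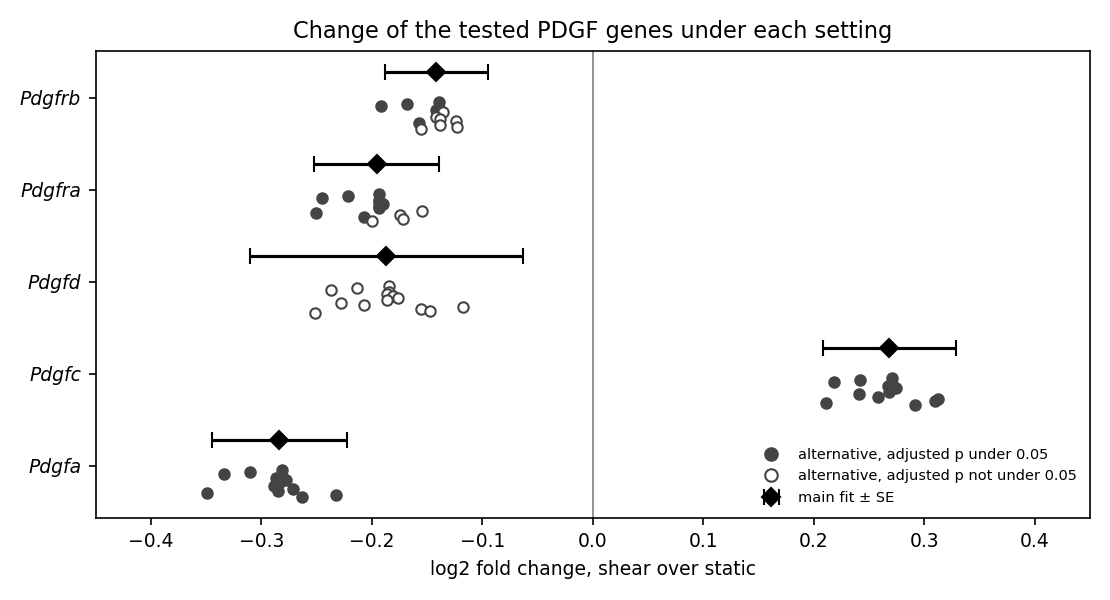
Log2 fold change, shear over static, of the 5 tested PDGF genes (diamonds, main test with SE) and under each of 14 alternatives (circles, filled where the adjusted p was under 0.05). All circles of Pdgfa and Pdgfc are filled, those of Pdgfra and Pdgfrb are mixed, and none of Pdgfd is.

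Per exon length the levels of Pdgfa, Pdgfrb and Pdgfc were separate in static libraries and closer in shear libraries, where Pdgfa overlapped with the others. In static libraries Pdgfa was highest at 27.0 ± 0.3 RPKM, followed by Pdgfrb at 25.8 ± 0.6, Pdgfc at 17.5 ± 0.9, Pdgfra at 10.9 ± 0.8 and Pdgfd at 1.58 ± 0.13 RPKM (SD, n = 3 each). The ranges of neighbours in that order did not overlap. In shear libraries Pdgfrb at 23.4 ± 0.5, Pdgfa at 22.2 ± 1.9 and Pdgfc at 21.1 ± 1.5 RPKM (SD, n = 3 each) overlapped with their neighbours, and Pdgfra at 9.55 ± 0.28 and Pdgfd at 1.39 ± 0.11 RPKM lay below. The summed exon length counts every annotated exon, so a gene whose cells use a short isoform is understated.

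**Figure D3:**
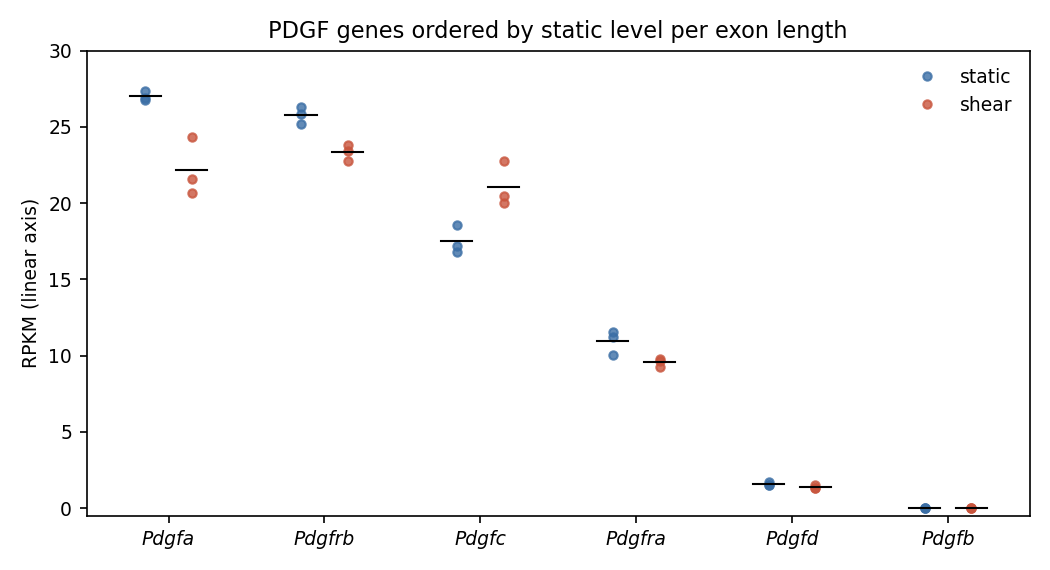
RPKM of each PDGF gene in each library (points) with group means (lines), ordered by static level. The static points of Pdgfa, Pdgfrb and Pdgfc lie in separate bands, while their shear points fall between 20.0 and 24.3 RPKM.

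Within the summed ligand level, the shares of Pdgfa and Pdgfc shifted while the sum overlapped between groups. Pdgfa contributed 57.1% to 59.4% of summed ligand RPKM in static libraries and 46.2% to 53.2% in shear libraries. Pdgfc contributed 37.2% to 39.3% in static and 43.8% to 50.9% in shear libraries, and Pdgfd 2.92% to 3.65% in all. The summed ligand level itself was 45.1 to 47.2 RPKM in static and 43.6 to 45.7 RPKM in shear libraries. Pdgfc over Pdgfa, a ratio chosen after the values were seen and therefore not tested, was 0.627, 0.628 and 0.689 in static replicates 1 to 3 and 0.824, 1.10 and 0.946 in shear replicates 1 to 3. Pdgfc thus exceeded Pdgfa per length in 1 library, shear replicate 2.

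The summed receptor level was 36.3 to 37.4 RPKM in static and 32.0 to 33.5 RPKM in shear libraries, without overlap. Of 3 ratios tested within libraries by a two-sided exact permutation test, which with 3 against 3 libraries cannot give a p below 0.1, none could pass the threshold. The log2 ratio of Pdgfra over Pdgfrb went from -1.24 ± 0.13 to -1.29 ± 0.03 (SD, n = 3 each; exact permutation p = 0.40, adjusted p = 0.40 over the 3 ratios). The groups overlapped, with static replicate 2 lowest at -1.39. Summed ligands over summed receptors went from 0.33 ± 0.05 to 0.44 ± 0.05 on the log2 scale (SD, n = 3 each; exact permutation p = 0.10, adjusted p = 0.15), with all shear libraries above all static ones. Pdgfc over Pdgfd went from 3.47 ± 0.04 to 3.93 ± 0.18 (log2, SD, n = 3 each; exact permutation p = 0.10, adjusted p = 0.15), again without overlap.

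**Figure D4:**
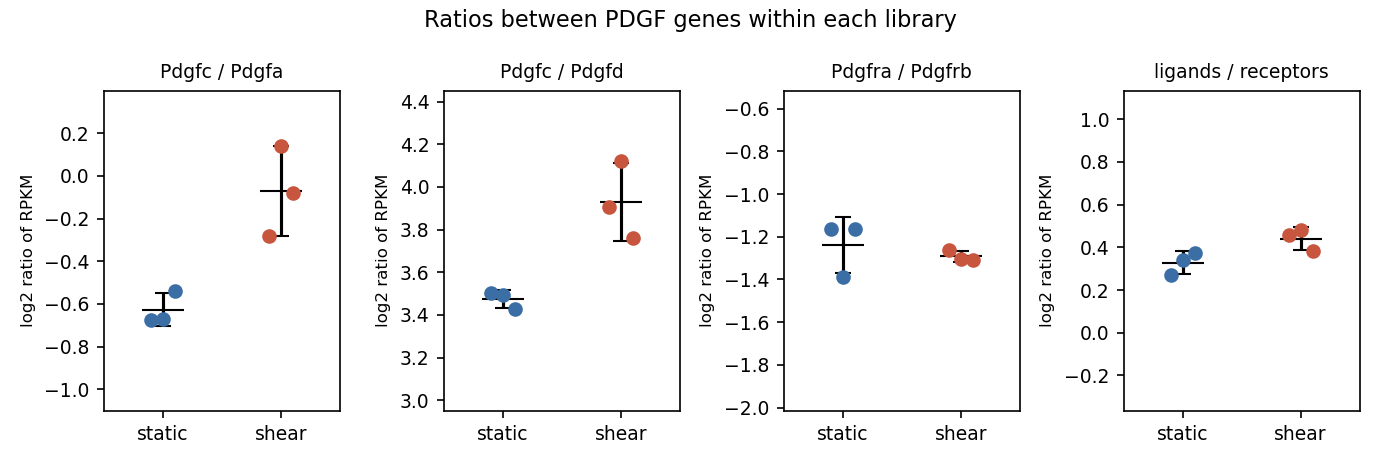
Log2 ratios of RPKM within each library (points) with mean and SD, each axis spanning the same width. Shear points lie above static points for Pdgfc over Pdgfa, Pdgfc over Pdgfd and summed ligands over summed receptors, and the groups overlap for Pdgfra over Pdgfrb.

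Genes that act around the receptors were described by 5 lists, chosen with earlier results of these data known. Over all tested genes the median log2 fold change was -0.012. Of 26 tested adaptors and effectors 5 rose and 2 fell, 26.9% beside 18.5% of all tested genes, with a median of -0.0034. Pik3ca, a catalytic subunit of phosphatidylinositol 3-kinase, rose from 35.7 to 54.9 CPM (log2 fold change 0.62 ± 0.06 SE). Pik3r1, a regulatory subunit of that kinase that docks on the receptors, went from 107 to 92.0 CPM (-0.21 ± 0.07 SE, edgeR adjusted p = 0.025). Pik3cb and Pik3r2, another catalytic and another regulatory subunit, did not pass (edgeR adjusted p = 0.91 and 0.93). Of the exchange factors that act downstream of the receptors, Sos2 rose by 0.39 and Sos1 fell by 0.26 on the log2 scale. The adaptor gene Grb2 rose by 0.16. Without static replicate 1 the change of Pik3r1 was -0.13 on the log2 scale (edgeR adjusted p = 0.23), and its call was also lost without shear replicate 2 or shear replicate 3 (-0.20 and -0.15). The call of Grb2 was lost with library totals alone (0.11, edgeR adjusted p = 0.12) and without static replicate 1, static replicate 3 or shear replicate 1 (adjusted p = 0.062, 0.053 and 0.050), and without static replicate 1 the list had 4 called members in place of 7.

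Of 13 tested phosphatases, ubiquitin ligases and feedback inhibitors of the receptors, 7 rose and 1 fell, 61.5% beside 18.5% of all tested genes, with a median of 0.20. Spry4 and Spry2, inhibitors of receptor signalling to RAS, rose by 0.73 and 0.39 on the log2 scale. Spry4 went from 40.2 ± 1.8 to 66.8 ± 1.3 CPM (SD, n = 3 each). Rasa1, the RAS-inactivating protein that docks on the beta receptor, rose by 0.46, and Ptpn12, a phosphatase that acts on PDGF receptors, by 0.34. Socs3, an inhibitor of cytokine signalling at 2.58 CPM in static and 1.61 CPM in shear libraries, was lower by edgeR (log2 fold change -0.68 ± 0.20 SE, adjusted p = 0.017). That call was lost without static replicate 1 (edgeR adjusted p = 0.10) or shear replicate 3 (0.051).

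Of 16 tested genes for processing, binding and co-receptors 2 rose and 2 fell, 25.0% beside 18.5%, with a median of 0.0071. Plau, the urokinase gene whose product activates PDGF-D, was at 56.5 ± 4.1 CPM in static and 110 ± 5 CPM under shear (SD, n = 3 each), a rise of 0.96 ± 0.06 on the log2 scale (SE, adjusted p = 4.5e-12 by edgeR). Plat, the tissue plasminogen activator gene whose product activates PDGF-C, went the other way, from 117 to 105 CPM (-0.16 ± 0.05 SE, edgeR adjusted p = 0.019). The call of Plat was lost, with edgeR adjusted p-values of 0.050 to 0.11, without static replicate 2, static replicate 3, shear replicate 1 or shear replicate 2. Furin, a protease that cuts PDGF-A and PDGF-B precursors, rose by 0.22, and Nrp1, a co-receptor gene, fell from 62.2 to 49.4 CPM (-0.33). Sparc, a matrix protein that binds PDGF-B, was at 2759 CPM in static and 2903 CPM in shear libraries and did not pass (edgeR adjusted p = 0.26).

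Among VEGF relatives and class III receptor kinases, a list that also holds ligands of such kinases, 3 of 11 tested rose and 1 fell. That was 36.4% beside 18.5%, with a median of 0.019. Vegfa rose from 425 to 862 CPM (log2 fold change 1.02 ± 0.04 SE). Csf1, the ligand of another class III kinase, rose by 0.68 and the VEGF receptor gene Flt1 by 0.51. The VEGF receptor gene Kdr fell from 7.28 to 3.68 CPM (-0.98 ± 0.16 SE, edgeR adjusted p = 4.5e-05).

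Of 15 tested genes that PDGF classically induces in fibroblasts 12 rose and 1 fell, 86.7% beside 18.5%, with a median of 0.91. Many other stimuli induce the same genes. Egr2 (2.46) and Egr1 (1.97), zinc-finger transcription factors of the early response, the cyclooxygenase gene Ptgs2 (1.42) and the AP-1 subunit gene Junb (1.41) were highest among those named. The chemokine gene Cxcl1 fell from 290 to 244 CPM (-0.25). The rises in this list were larger on the log2 scale than any change in the PDGF genes for all but Has2, the hyaluronan synthase gene (0.24).

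**Figure D5:**
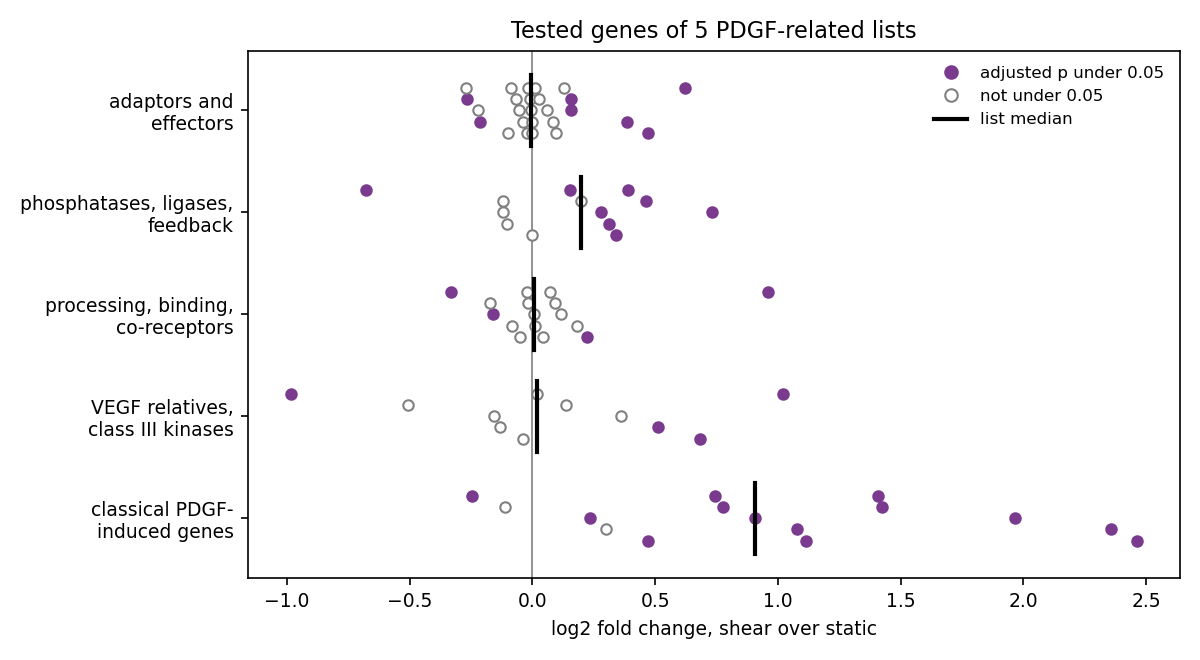
Log2 fold change, shear over static, of each tested gene in 5 PDGF-related lists (filled where the adjusted p was under 0.05), with the list median as a bar. The medians of adaptors, processing genes and VEGF relatives lie near 0, that of phosphatases and feedback genes at 0.20 and that of classical PDGF-induced genes at 0.91.

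Likeness was measured as the Pearson correlation of log2 CPM over the 6 libraries with 10796 genes of sufficient level, given as a description. The 6 points share their groups, and r reached 0.95 for 140 genes with Pdgfa, 165 with Pdgfc, 29 with Pdgfra and 166 with Pdgfrb. Pdgfa was most like Lct (r = 0.994), Ttc28 (0.993) and the keratin gene Krt7 (0.992). Pdgfc was most like AABR07035375.1 (r = 0.999), Dock4 (0.998) and the mitochondrial gene Mt-co1 (0.997). Pdgfra was most like LOC102557117 (r = 0.999), the tetraspanin gene Tspan31 (0.979) and Cnnm1 (0.976). Pdgfrb was most like Dlg5 (r = 0.997), Aunip (0.996) and Gemin8 (0.994).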

How the data were processed

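Per the labels' protocols, stranded mRNA libraries were prepared from the total RNA of 6 samples. The authors deposited 1 table of whole-number counts per gene and library with the summed exon length of each gene, per the file headers. Tools named in the submitters' processing notes are edgeR 3.12.1, Subread 1.5.1, featureCounts and Trimmomatic 0.36. The sources used here do not give the aligner, build, annotation or strand setting. Low counts (1 to 20) were even in 71.4% to 72.2% of cases, and counts above 200 in 51.1% to 52.3%, so both reads of a pair may have been counted; a run with halved counts was made, and intervals from counting error are too narrow if so.

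Counts were filtered with filterByExpr (minimum count 10), scaled by TMM and tested with edgeR 4.0.16 (R 4.3.3, quasi-likelihood, two-sided, no covariates); 0.05 was the threshold, and 4102 genes had an unadjusted p under 0.05. The SE was worked back as the size of the log2 change divided by the root of F. Fold changes are shear over static. Alternatives were other scalings, DESeq2 1.42.0, limma-voom (limma 3.58.1), no filter, halved counts, a replicate block and leaving out each library. The test was checked on simulated counts. Chi-square over degrees of freedom between replicates was 5.61 to 8.25, so no pair was treated as 1 library.

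The PDGF genes and the gene lists (5 of the pathway, 6 of cell type markers) were chosen with earlier results of these data known. Named are all PDGF genes and the 3 genes most like each changed PDGF gene. From each pathway list, up to 4 rises and 4 falls at or above a mean log2 CPM of 1 are named. Marker genes, Has2, Sparc, Pik3cb, Pik3r2 and Egr3 were named after their values were seen. Of 141 list genes 6 were not matched, after older symbols were looked up in RefSeq. Protein sequences were not used here. Pdgfa over Pdgfb was not computed, since Pdgfb was at 0 in 5 libraries. A result that the naming rule selects is not reported here, though it counts in the totals.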

Additional observations from a re-analysis of the deposited data

How the results depend on the processing

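The 5 tested PDGF genes kept their direction under all 14 alternatives; Pdgfb was not tested. Pdgfa and Pdgfc kept their calls in all, Pdgfra in 10 and Pdgfrb in 7. Leaving out 1 library gave log2 fold changes of -0.25 to -0.15 for Pdgfra and -0.16 to -0.12 for Pdgfrb. Pdgfrb lost its call without the low-count filter (-0.14, edgeR adjusted p = 0.063) and with the replicate block (-0.14, adjusted p = 0.071); the cause was not tested. Same-numbered libraries showed no shared variation (correlation of deviations -0.019 to -0.0005, beside -0.014 to 0.032 for other numbers). The labels do not say whether the numbers pair the libraries. The replicate block called 2336 genes in place of 2583. Library totals alone called 1730 lower genes and moved list medians to -0.053 (adaptors), 0.15 (phosphatases and feedback), -0.043 (processing) and 0.86 (classical PDGF-induced genes), with the median of all genes shifted by -0.050. Upper-quartile factors moved the processing median to -0.019. Leaving out 1 library gave 4 to 7 called adaptors, and medians of 0.17 to 0.24 for phosphatases and feedback, 0.010 to 0.037 for processing and -0.051 to 0.15 for VEGF relatives. Of 24 list genes that the naming rule selects, 20 kept their call in every alternative and 4 (Grb2, Pik3r1, Plat and Socs3) lost it at least once. At this depth a count of 0 allows a level of up to about 0.09 CPM. A Pdgfb level up to that value cannot be told from 0 in the 5 libraries without counts.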
